A study of Mus musculus with 6 samples.

Results

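The interferon-stimulated genes are a set of 43 genes whose transcription is switched on by interferons, chosen by name from 24661 genes in the deposited files. Their measured values were not a criterion, but earlier results of these data were known when they were chosen. The 43 genes were examined in olfactory mucosa from 3 wild-type mice and from 3 mice of the RTP1,2DKO genotype. In that genotype loxP takes the place of the Rtp1 coding region and a puromycin cassette that of Rtp2. The purpose of the study was to find how loss of both receptor transporting proteins affects odorant receptor expression, and Rtp4, another gene of the same family, is itself induced by interferon. For that reason the 43 genes were followed mouse by mouse, to see whether they differed between genotypes and whether single mice carried such a difference. The mice were littermates matched for sex at 3 weeks of age, labelled as strain C57BL/6 and postnatal day 21. The mutant line came from 129/B6 hybrid embryonic stem cells and was kept by backcrossing to C57BL/6, and both genotypes come from that stock. The dissected tissue was whole mucosa, so sensory neurons, supporting cells, glands, blood and immune cells could all contribute RNA.

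Interferons are secreted proteins, of which type I interferons are released when a cell senses viral nucleic acid. Type I interferons bind the receptor made of IFNAR1 and IFNAR2, which acts through the kinases JAK1 and TYK2 on transcription factors, STAT2 and IRF9 among them, that bind the interferon-stimulated response element (ISRE), whereas interferon gamma acts on the gamma-activated site (GAS). The genes switched on in this way encode sensors of foreign RNA and DNA, proteins that block viral replication, GTPases that attack membranes of intracellular pathogens, chemokines, and regulators that amplify or end the response.

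The deleted genes matched the labels. Rtp1 had 20522.4, 25301.0 and 13542.4 normalized counts in the wild-type and 90.6, 85.5 and 108.8 in RTP1,2DKO, and Rtp2 had 8496.9, 9510.5 and 7156.6 against 58.0, 26.2 and 51.0. Values for single mice are given in the order of mice 1, 2 and 3 of each genotype throughout. A normalized count is the estimated read count of a gene divided by the size factor of its library. The libraries held 31125410 to 41636996 estimated counts, with size factors of 0.907 to 1.147, and Xist was high in mouse 2 of each genotype and low in the others. Of the 6 marker genes of mature olfactory sensory neurons, 5 were lower in RTP1,2DKO by edgeR's quasi-likelihood test. All 43 members were detected, with means over the 6 mice between 12.7 and 2362.5 estimated counts, before division by size factors. In TPM (transcript abundance scaled by length to the same total in every mouse) the means lay between 0.15 and 164.14.

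The letters of the ISRE were found around many of the members' transcription start sites. Of the 43 members, 32 matched a RefSeq promoter window (GRCm38.p6, 250 bases before to 50 bases after the start). The motif GAAANNGAAA, read on both strands and with overlapping matches allowed, was present in 19 of the 32 (59.4%), against 1079 of 27025 genes with a window (3.99%). The GAS letters TTCNNNGAA, which read the same on both strands, were present in 10 of the 32 (31.2%) against 9.55% of all genes. The 250 bases before the start are shown for 5 members whose counts are described below, 5′ to 3′ on the strand of the gene, with ISRE matches in capitals. Isg15 (chr4:156200819-156201068, minus strand) holds 3 overlapping matches starting 78, 72 and 66 bases before the start. Ifit1 (chr19:34640639-34640888, plus strand) holds 2, starting 104 and 85 bases before it. Rsad2 (chr12:26456453-26456702, minus strand) holds 1 at 120 bases, and Cxcl10 (chr5:92348890-92349139, minus strand) holds 1 at 213 bases. Oasl1 (chr5:114922990-114923239, plus strand), the member with the greatest excess in a single mouse, is shown because these letters are not in its window.
Isg15: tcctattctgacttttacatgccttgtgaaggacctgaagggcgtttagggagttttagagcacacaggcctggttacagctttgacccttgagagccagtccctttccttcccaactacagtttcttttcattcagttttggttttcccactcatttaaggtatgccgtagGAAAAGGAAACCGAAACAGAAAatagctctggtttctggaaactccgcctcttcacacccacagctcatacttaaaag
Ifit1: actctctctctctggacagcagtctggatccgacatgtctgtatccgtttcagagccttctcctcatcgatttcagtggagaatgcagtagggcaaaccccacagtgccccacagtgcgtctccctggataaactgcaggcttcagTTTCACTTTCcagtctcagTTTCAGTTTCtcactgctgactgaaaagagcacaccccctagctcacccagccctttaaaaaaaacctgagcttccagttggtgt
Rsad2: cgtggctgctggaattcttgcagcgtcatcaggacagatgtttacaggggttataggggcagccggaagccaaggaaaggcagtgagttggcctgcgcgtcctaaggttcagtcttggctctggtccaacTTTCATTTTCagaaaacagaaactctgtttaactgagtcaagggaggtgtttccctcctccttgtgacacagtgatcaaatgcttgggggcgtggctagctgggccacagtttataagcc
Cxcl10: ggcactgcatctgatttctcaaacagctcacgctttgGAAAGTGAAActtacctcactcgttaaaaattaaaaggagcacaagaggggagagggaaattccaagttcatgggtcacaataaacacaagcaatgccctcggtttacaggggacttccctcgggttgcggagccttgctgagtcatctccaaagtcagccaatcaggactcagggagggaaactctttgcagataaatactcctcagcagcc
Oasl1: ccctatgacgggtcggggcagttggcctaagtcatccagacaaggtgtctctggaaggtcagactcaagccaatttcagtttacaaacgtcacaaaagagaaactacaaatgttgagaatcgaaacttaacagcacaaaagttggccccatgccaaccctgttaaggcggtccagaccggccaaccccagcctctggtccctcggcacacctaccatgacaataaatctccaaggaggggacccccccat

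Between genotypes, no member passed the threshold. By edgeR's quasi-likelihood test with Benjamini-Hochberg adjustment over 22152 genes, 0 of the 43 were higher and 0 were lower at an adjusted p under 0.05, against 0.438% of all genes called higher and 3.19% called lower. The lowest adjusted p of a member was 0.083. At an unadjusted p under 0.05 there were 8 members, 6 higher and 2 lower in RTP1,2DKO, which is 18.6% against 12.1% of all genes. DESeq2's Wald test, edgeR's exact test and edgeR's likelihood-ratio test each called 1 member higher, Rsad2, and none lower. The log2 fold change (RTP1,2DKO against wild-type, given below with its standard error, SE, and the adjusted p of the quasi-likelihood test) was positive in 33 members and negative in 10, with a median of 0.14 against 0.02 for all genes tested and a range from -0.44 to 0.99. In whole tissue, fewer cells of a type and less RNA per cell cannot be told apart for any of these values.

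A single mouse stood above the rest. Each member's log2(normalized count + 1) was scaled to a mean of 0 and an SD of 1 over the 6 mice (a z-score), and the z-scores were averaged within each mouse. The mean z-score was -0.41, -0.01 and -0.27 in the wild-type and -0.40, 0.13 and 0.96 in RTP1,2DKO. RTP1,2DKO mouse 1 was thus level with the lowest wild-type mouse, RTP1,2DKO mouse 2 was slightly above the highest wild-type mouse, and RTP1,2DKO mouse 3 was far above all others. The group means were -0.23 ± 0.20 in the wild-type and 0.23 ± 0.68 in RTP1,2DKO (SD, n = 3 mice each), a difference of 0.46 that was smaller than the SD among the RTP1,2DKO mice. Without RTP1,2DKO mouse 3 the difference was 0.14, and without any other single mouse it lay between 0.39 and 0.75. The order of the mice depended on the scale. On the deposited TPM, where the median gene of a mouse lay between -0.32 and 0.35 log2 units from its mean over mice, RTP1,2DKO mouse 3 was at -0.08, wild-type mouse 2 was highest at 1.02, and the difference was -0.22. After each mouse's TPM was rescaled to the median gene, RTP1,2DKO mouse 3 was again highest at 0.96 and the difference was 0.44. All later statements on normalized counts are relative to the median gene in this sense.

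**Figure D1:**
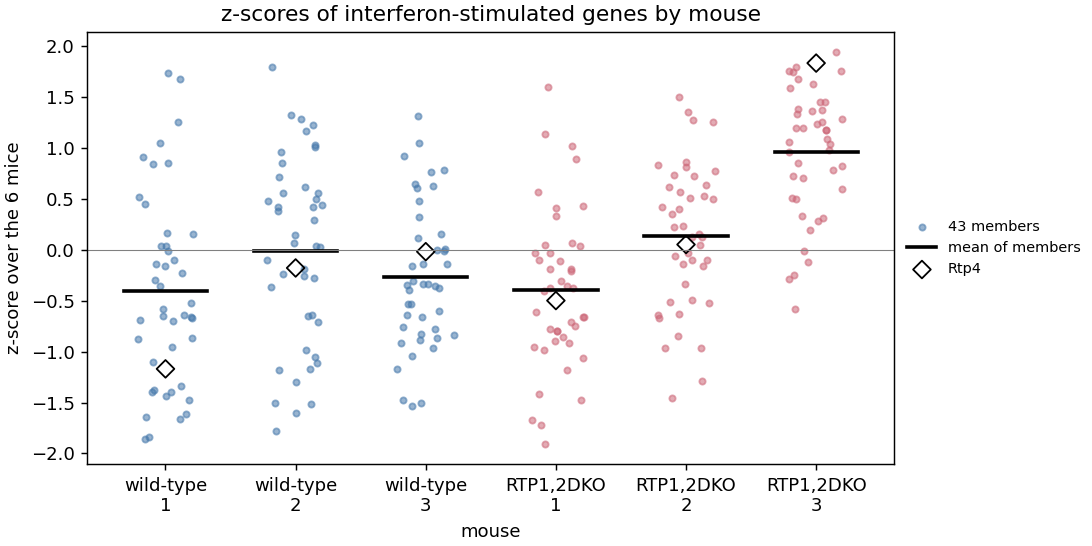
z-scores of the 43 interferon-stimulated genes (points) in each of the 6 mice, from normalized counts on the log2 scale; black bars are the mean over members and diamonds are Rtp4. RTP1,2DKO mouse 3 has a mean of 0.96 and the other 5 mice lie between -0.41 and 0.13, an order that does not hold on unrescaled TPM.

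The excess in RTP1,2DKO mouse 3 ran through most of the set. That mouse had the highest normalized count of the 6 in 25 of the 43 members (58.1%), whereas 16.4% of the 18156 genes with a mean of at least 10 counts were highest there. None of the other mice was the highest in more than 5 members, and RTP1,2DKO mouse 3 was the lowest in 0 of 43. Its count lay above every wild-type mouse in 28 members, against 26.1% of the same 18156 genes. RTP1,2DKO mouse 2 did so in 16 members and RTP1,2DKO mouse 1 in 8 of the 43. Of all 22152 genes tested, RTP1,2DKO mouse 2 did so in 5716 and RTP1,2DKO mouse 1 in 5739. The excess of RTP1,2DKO mouse 3 was modest for most members, with a median ratio of 1.23 to the mean of the other 5 mice. The median ratio was 0.97 for all 22152 genes tested, which include those with a mean under 10 counts. The SD on the log2 scale was larger among RTP1,2DKO than among wild-type mice in 22 members (51.2%), against 40.7% of the same 18156 genes. Without RTP1,2DKO mouse 3 the members' median log2 fold change was 0.05, with 25 positive.

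**Figure D2:**
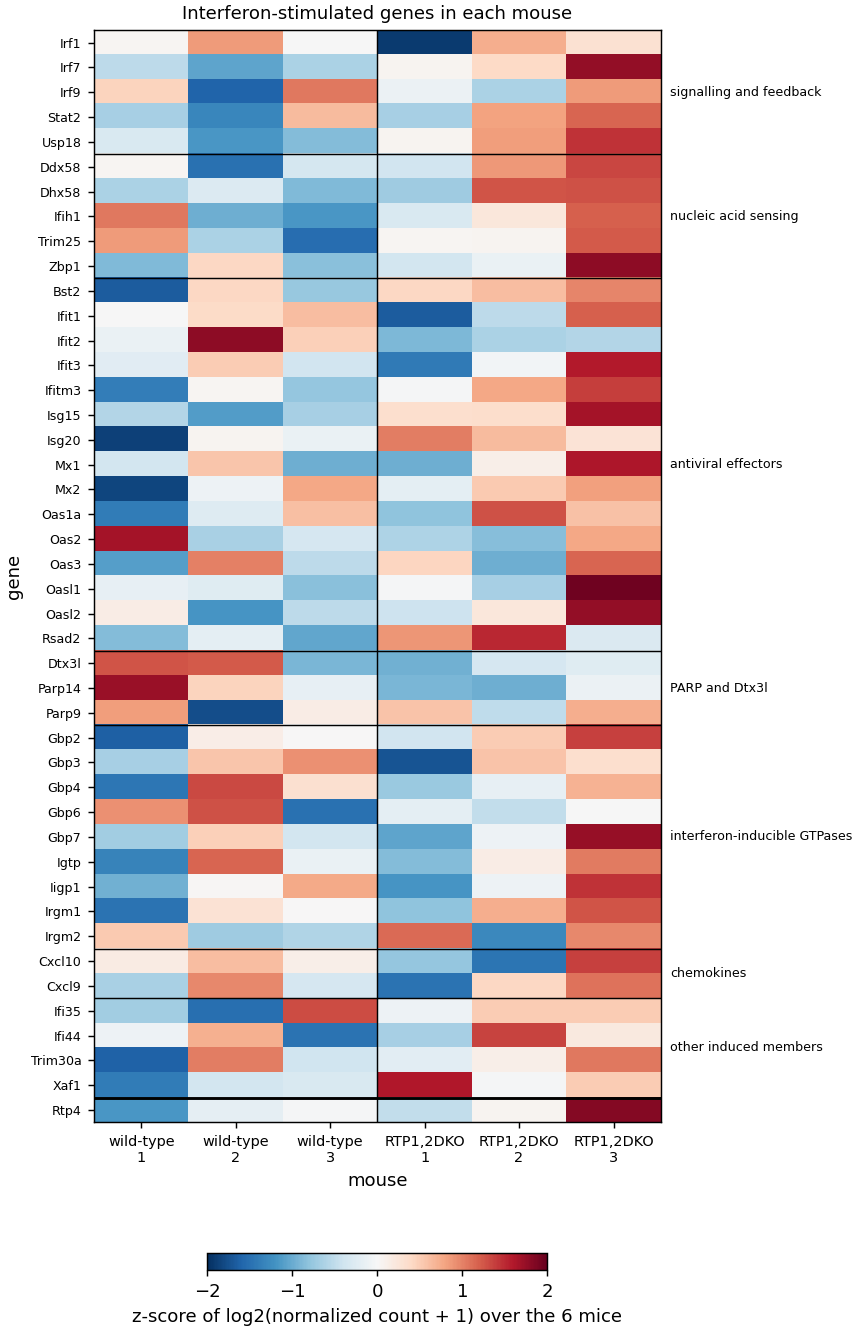
z-score of log2(normalized count + 1) over the 6 mice for each member (rows, grouped by role) and for Rtp4 (bottom row); red is above and blue below the member's mean. The column of RTP1,2DKO mouse 3 is above the mean in 38 of 43 members, and below it in Ifit2, Rsad2, Dtx3l, Parp14 and Gbp6.

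Rtp4 was highest in the same mouse. It lies on chromosome 16 from 23520291 to 23614222 (GRCm38), on the plus strand, and had 360.0, 461.8 and 479.6 normalized counts in the wild-type and 425.7, 488.4 and 761.4 in RTP1,2DKO. RTP1,2DKO mouse 3 was 1.72 times the mean of the other 5, and the remaining RTP1,2DKO mice lay within or just above the range of the wild-type. Its log2 fold change was 0.36 (SE 0.21, edgeR adjusted p = 0.57), and without RTP1,2DKO mouse 3 it was 0.07 (adjusted p = 0.96). By z-score Rtp4 ordered the mice as the members' mean did, except that wild-type mice 2 and 3 changed places.

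Members whose products carry or end the signal had a mean z-score of 1.11 in RTP1,2DKO mouse 3, and 3 of the 5 were highest there. Irf7, a transcription factor that amplifies the type I response, had 51.7, 42.9 and 49.6 normalized counts in the wild-type and 63.2, 71.5 and 114.6 in RTP1,2DKO. The groups did not overlap, and RTP1,2DKO mouse 3 was 2.05 times the mean of the other 5. Its log2 fold change was 0.79 (SE 0.32, edgeR adjusted p = 0.31) and 0.49 without that mouse. Usp18, which removes ISG15 from proteins and restrains signalling at the type I receptor, was among the 3 members of highest TPM, with a mean of 17.06. It had 667.2, 557.2 and 592.1 normalized counts in the wild-type and 718.7, 841.5 and 957.4 in RTP1,2DKO. The groups did not overlap, and the log2 fold change was 0.47 (SE 0.15, edgeR adjusted p = 0.13), or 0.36 without RTP1,2DKO mouse 3. Of the genes for ISRE-binding factors, Stat2 had a log2 fold change of 0.19 and Irf9 of 0.00 (adjusted p = 0.72 and 0.99). Irf1, a transcription factor induced mainly by interferon gamma, had -0.10.

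The 5 members that sense nucleic acids or assist sensing were all highest in RTP1,2DKO mouse 3, where their mean z-score was 1.36. Zbp1, a sensor of Z-form nucleic acid, had 22.8, 36.3 and 23.2 normalized counts in the wild-type and 27.4, 29.7 and 58.8 in RTP1,2DKO. Only RTP1,2DKO mouse 3 was outside the range of the wild-type, at 2.11 times the mean of the other 5, and the log2 fold change was 0.48 with it and 0.05 without it. Ddx58, which encodes the RNA sensor RIG-I, had a mean of 2362.5 estimated counts before division by size factors. By normalized count its highest mouse was 1.07 times the mean of the others, and its log2 fold change was 0.08. Ifih1 (the RNA sensor MDA5), Trim25 (a ubiquitin ligase acting on RIG-I) and Dhx58 (the related helicase LGP2) had log2 fold changes of 0.15, 0.11 and 0.50, with adjusted p-values of at least 0.52.

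Among the 15 antiviral effectors, 10 were highest in RTP1,2DKO mouse 3, and the role had 12 positive and 3 negative log2 fold changes with a median of 0.33. Isg15, a ubiquitin-like protein attached to other proteins, had 102.4, 89.7 and 100.3 normalized counts in the wild-type and 128.6, 129.1 and 179.3 in RTP1,2DKO. The groups did not overlap, and RTP1,2DKO mouse 3 was 1.63 times the mean of the other 5. Its log2 fold change was 0.58 (SE 0.23, edgeR adjusted p = 0.32). Isg20, an exonuclease that degrades viral RNA, had 67.2, 129.8 and 121.3 against 180.2, 157.8 and 140.1 normalized counts. It was highest in RTP1,2DKO mouse 1 rather than 3, with groups that did not overlap and a log2 fold change of 0.58 (adjusted p = 0.40). Oasl1, a protein of the oligoadenylate synthetase family, was similar in 5 mice and higher in 1, with 33.1, 31.5 and 22.1 normalized counts in the wild-type and 35.8, 24.4 and 113.7 in RTP1,2DKO. The last was 3.87 times the mean of the others, and the log2 fold change was 0.99 with all mice (SE 0.54, edgeR adjusted p = 0.53) and 0.04 without that mouse.

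The Ifit genes, antiviral effectors that are neighbours on chromosome 19, had unlike patterns over the mice. Ifit1 (34640871 to 34650009) had 1313.7, 1472.2 and 1575.5 normalized counts in the wild-type and 812.4, 1134.6 and 1862.8 in RTP1,2DKO, so that the RTP1,2DKO group held both the lowest mice and the highest. Its log2 fold change was -0.19 with all mice (adjusted p = 0.83) and -0.58 without RTP1,2DKO mouse 3 (adjusted p = 0.16). Ifit2 (34550694 to 34576419) had 726.2, 1082.9 and 825.8 against 619.6, 654.9 and 662.4. It was the only member whose groups did not overlap with RTP1,2DKO lower, with a log2 fold change of -0.44 (SE 0.16, edgeR adjusted p = 0.21). Ifit3 (34583531 to 34588731) had 0.13 with all mice and -0.30 without RTP1,2DKO mouse 3, but only 38.2% of its words of 31 bases occur in no other gene, so its reads may be shared with a near copy.

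Rsad2 came closest to the threshold, and was not highest in RTP1,2DKO mouse 3. Rsad2 encodes viperin, an enzyme that makes a chain-terminating nucleotide, and lies on chromosome 12 from 26442746 to 26456452. It had 721.0, 906.4 and 681.4 normalized counts in the wild-type and 1298.2, 1589.8 and 877.0 in RTP1,2DKO. RTP1,2DKO mice 1 and 2 were above every wild-type mouse and RTP1,2DKO mouse 3 was within the wild-type range, the reverse of the pattern of the set. The log2 fold change was 0.71 (SE 0.20, edgeR adjusted p = 0.083). With the mouse number as a block it was 0.68 (adjusted p = 0.020), and without RTP1,2DKO mouse 3 it was 0.90 (adjusted p = 0.017), the only member to pass in either fit. Leaving out other single mice gave adjusted p-values of up to 0.37. Among the RTP1,2DKO mice, red blood cell markers were also lowest in mouse 3, but they were highest in mouse 1, whereas Rsad2 was highest in mouse 2. The mean z-scores of these markers were 1.47, 0.56 and -0.13, against -1.39, -0.04 and -0.48 in the wild-type. DESeq2's Wald test called the globin genes Hbb-bs and Hbb-bt higher (adjusted p = 0.0047 and 0.0016), and without RTP1,2DKO mouse 3 edgeR called Hba-a2, Hbb-bt and Alas2 higher (adjusted p = 0.022, 0.015 and 0.048). The part of blood in the value of Rsad2 was not tested. Cmpk2, an interferon-induced gene outside the set whose product supplies the substrate of viperin, had a log2 fold change of -0.24 (adjusted p = 0.60).

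Ifitm3, a membrane protein that blocks fusion of enveloped viruses, had the highest level of the set at a mean of 164.14 TPM. Its normalized counts were 605.2, 774.7 and 671.4 in the wild-type and 766.1, 880.8 and 978.9 in RTP1,2DKO. RTP1,2DKO mouse 1 lay just within the range of the wild-type and the other two lay above it, with a log2 fold change of 0.36 (SE 0.15, edgeR adjusted p = 0.32). Its near copy Ifitm2, outside the set, gave 0.62 (adjusted p = 0.16), and reads of both may be shared, since 79.5% of the words of Ifitm3 occur in no other gene. The remaining effectors were Bst2, the surface protein tetherin, at 0.48, and the Mx GTPases Mx1 and Mx2 at 0.21 and 0.39. The oligoadenylate synthetases Oas1a, Oas2, Oas3 and Oasl2 lay between -0.08 and 0.33, and Oas1a shares most of its sequence with other genes (31.2% of words unique).

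**Figure D3:**
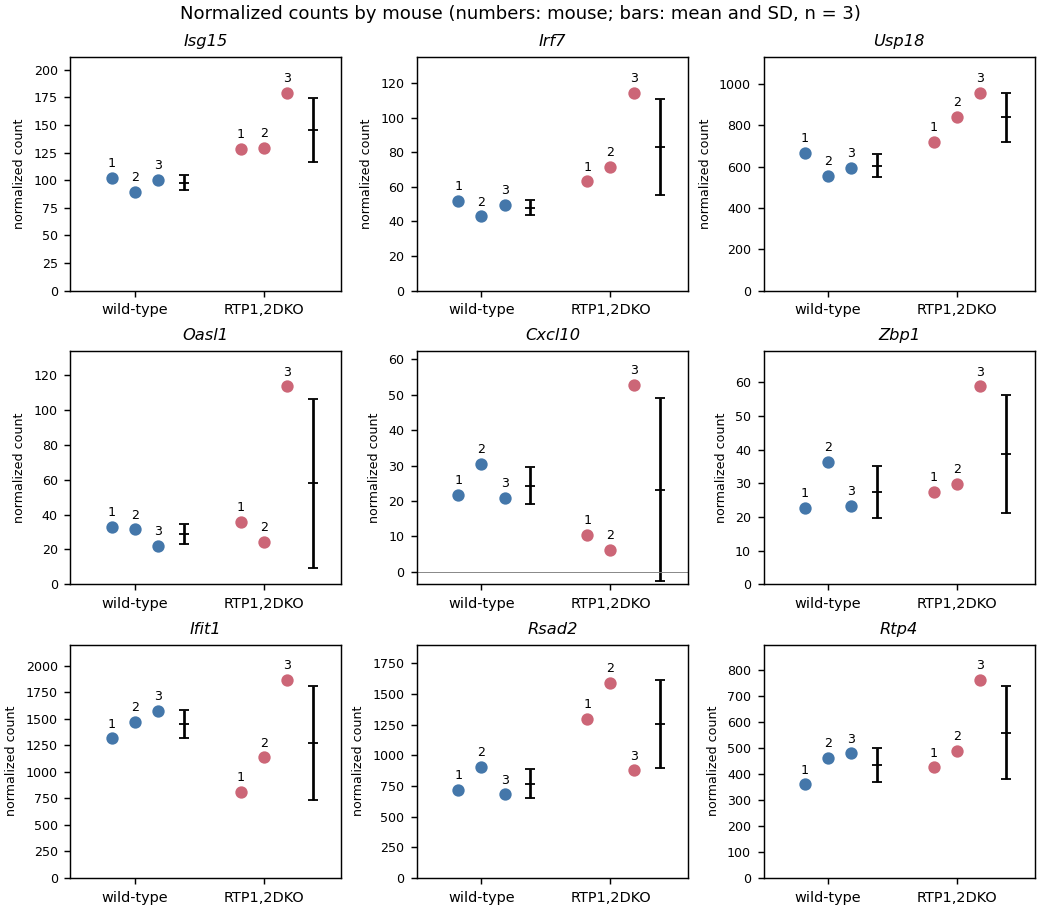
Normalized counts of 8 members and Rtp4 in each mouse (points, numbered by mouse) with the group mean and SD (n = 3); the SD bar of Cxcl10 reaches below 0. The groups do not overlap in Isg15, Irf7 and Usp18, and in Oasl1, Cxcl10, Zbp1 and Rtp4 only RTP1,2DKO mouse 3 is well above the wild-type.

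Across the whole set, 5 members (11.6%) had no overlap between groups with RTP1,2DKO higher, against 7.82% of genes with a mean of at least 10 counts. They were Isg15, Isg20, Irf7, Usp18 and Xaf1. Ifit2 was the only one lower (2.33% against 10.6%). With 3 mice against 3, an exact permutation test cannot give a two-sided p below 0.1 for any of them. Xaf1, a pro-apoptotic partner of the inhibitor XIAP, had 93.1, 113.5 and 114.7 normalized counts in the wild-type and 165.4, 121.2 and 134.2 in RTP1,2DKO. It was highest in RTP1,2DKO mouse 1, with a log2 fold change of 0.39 (SE 0.23, edgeR adjusted p = 0.59).

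The neighbours Parp14, Dtx3l and Parp9 on chromosome 16 were each highest in wild-type mouse 1. Parp14 (35832874 to 35871544), Dtx3l (35926511 to 35939151) and Parp9 (35938470 to 35972605) encode ADP-ribosyltransferases and the ubiquitin ligase that partners PARP9. Their mean z-score was 1.27 in wild-type mouse 1 and 0.12 in RTP1,2DKO mouse 3, where Parp9 was above its mean (z-score 0.72) and Parp14 and Dtx3l were below theirs (-0.12 and -0.25). Parp14 had a log2 fold change of -0.44 (adjusted p = 0.22), Dtx3l of -0.12 and Parp9 of 0.08. The last 2 genes overlap on opposite strands, and whether the counting used strand is not given in the sources used here. The deleted Rtp1 and Rtp2 lie on the same chromosome from 23429133 to 23433960 and from 23925548 to 23932394, and so do Mx1 and Mx2, beyond 97447035.

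The 9 interferon-inducible GTPases and the 2 chemokines held no member near the threshold. Of the guanylate-binding proteins and immunity-related GTPases, 4 were highest in RTP1,2DKO mouse 3 and 3 in wild-type mouse 2, and their log2 fold changes ranged from -0.28 (Gbp6, 25.7% of words unique) to 0.26 (Gbp2). Igtp and Irgm2 overlap on the same strand and may share reads. Cxcl10, a chemokine that draws in activated T cells, had 21.7, 30.5 and 20.9 normalized counts in the wild-type and 10.5, 6.1 and 52.9 in RTP1,2DKO. RTP1,2DKO mice held both the 2 lowest values and the highest, 2.94 times the mean of the other 5, so that a log2 fold change of -0.10 with all mice became -1.58 without RTP1,2DKO mouse 3 (adjusted p = 0.35). Cxcl9, its relative induced by interferon gamma, was at 12.7 estimated counts on average, before division by size factors, and was also highest in that mouse. Ifi35, Ifi44 and Trim30a had log2 fold changes of 0.10, 0.21 and 0.17.

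**Figure D4:**
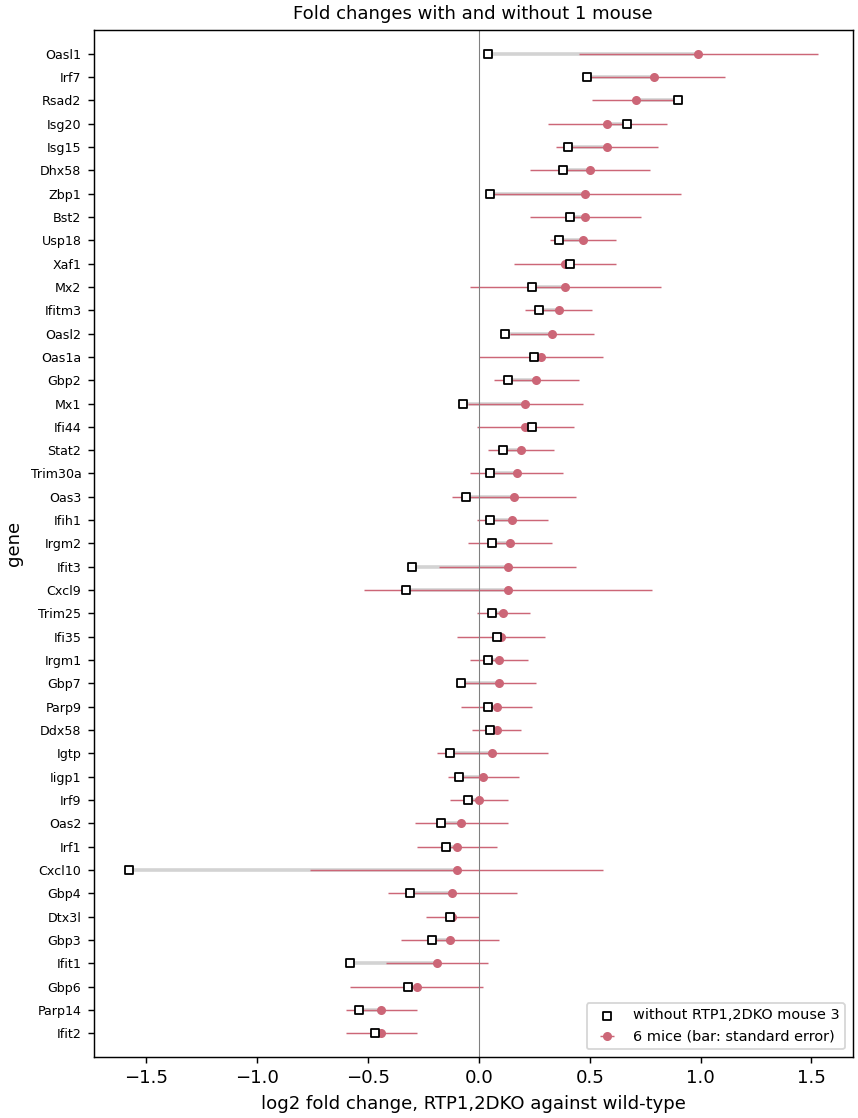
log2 fold change of each member, RTP1,2DKO against wild-type, from edgeR with all 6 mice (circles, with standard error) and without RTP1,2DKO mouse 3 (squares). Oasl1 moves from 0.99 to 0.04 and Cxcl10 from -0.10 to -1.58, while Rsad2 moves away from 0, from 0.71 to 0.90.

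Members with and without the ISRE letters both had mean z-scores above 0 in RTP1,2DKO mouse 3. Of the 19 with a match, 14 were highest in that mouse, with a median ratio of 1.32 to the other 5 and a mean z-score of 1.11. Of the 13 with a window and no match, 5 were highest there, with a median ratio of 1.09 and a mean z-score of 0.74. Oasl1 and Irf7 were among those without a match, and Rsad2, which has one, was not among the members highest in that mouse.

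Beyond the 43 members, a list of 92 further interferon pathway genes was examined by role. Of the 83 tested, 0 were called higher and 1 was called lower, against 0.438% and 3.19% of all genes tested. Of the 10 ligands, Ifna1, Ifna2, Ifna4, Ifna5, Ifng, Ifnl2 and Ifnl3 had no count in any mouse and were not detectable at this depth, and the summed normalized counts of the other ligands (Ifnb1, Ifnk and Ifne) did not exceed 10.8 in any mouse. The gene called lower was Ifnlr1, the receptor chain specific to interferon lambda, on chromosome 4 from 135686287 to 135708181. It had 1358.2, 1158.3 and 1075.0 normalized counts in the wild-type and 671.2, 825.0 and 762.4 in RTP1,2DKO. Every RTP1,2DKO mouse was below every wild-type mouse, with a log2 fold change of -0.67 (SE 0.14, edgeR adjusted p = 0.015). Such a separation held for 2 of the 83 pathway genes tested and for 10.6% of all genes with a mean of at least 10 counts. With single mice left out, the edgeR adjusted p of Ifnlr1 ranged from 0.018 to 0.085. The receptor chains Ifnar1, Ifnar2, Ifngr1, Ifngr2 and Il10rb had log2 fold changes between -0.16 and 0.09, and the kinases Jak1, Jak2 and Tyk2 between -0.17 and 0.04. Mature olfactory sensory neuron markers were lower in the same mice, and their part in the value of Ifnlr1 was not tested.

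Other genes known to be induced by interferon, Rtp4 among them, were also often highest in that mouse. Of 53 such genes tested, 28 were highest there, in RTP1,2DKO mouse 3, where their mean z-score was 0.89, and 0 were called in either direction. Ifi27l2a and Ifi205, chosen after their values were seen, had the widest excess. Ifi27l2a had 471.7, 431.3 and 849.0 normalized counts in the wild-type and 522.7, 1167.7 and 2123.5 in RTP1,2DKO, with a log2 fold change of 1.12 (adjusted p = 0.21). With the mouse number as a block, Ifi27l2a and Ifitm2 passed the threshold (adjusted p = 0.042 and 0.044). Ifi205, a member of the interferon-induced p200 family, had 7.2, 20.0 and 8.8 against 19.0, 11.3 and 75.5.

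Markers of immune and other cells, including neurons, were set beside the score. The 12 macrophage markers were all detected, with a summed normalized count of 11396.5 to 18102.5 in the wild-type and 15726.0 to 19017.1 in RTP1,2DKO. Their mean z-score was also highest in RTP1,2DKO mouse 3, at 0.67, where 5 of the 12 had their highest count, and lowest in wild-type mouse 1, at -0.74. None of the markers of macrophages, T and NK cells, B and plasma cells, neutrophils, dendritic cells, red blood cells or endothelium was called in either direction by edgeR's quasi-likelihood test with all 6 mice. Of the 4 markers of immature olfactory sensory neurons, Gap43 and Gng8 were called higher (adjusted p = 0.043 and 0.013, and 0.20 and 0.074 without RTP1,2DKO mouse 3), and in all 4 every RTP1,2DKO mouse was above every wild-type mouse. Their mean z-score was 0.88, 0.62 and 0.86 in RTP1,2DKO against -0.25, -0.73 and -1.38 in the wild-type. Of the neutrophil markers, 0 of 10 were highest in RTP1,2DKO mouse 3. Their mean z-score was 0.62, -0.08 and 0.42 in RTP1,2DKO against -1.58, 0.48 and 0.15 in the wild-type. In RTP1,2DKO mouse 3, T and NK cell markers had 0.42 and endothelial markers 0.58. B and plasma cell, dendritic cell and red blood cell markers had -0.03, 0.14 and -0.13 in that mouse. The part of any of these cells in the score of the members was not tested.

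**Figure D5:**
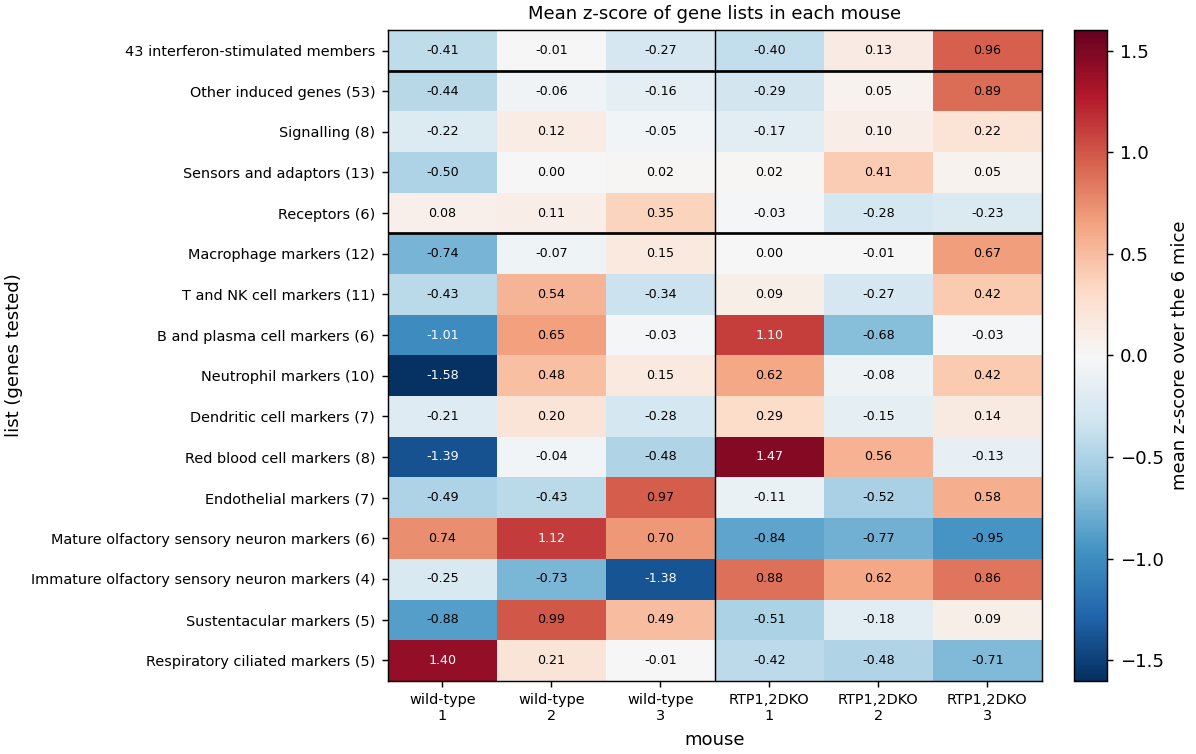
Mean z-score in each mouse (columns) of the 43 members, of other interferon pathway genes by role and of cell type markers (rows), from normalized counts, with the number of genes tested in brackets. The 53 other induced genes are also highest, at 0.89, in RTP1,2DKO mouse 3, and macrophage markers reach 0.67 there; on unrescaled TPM the members are not highest in that mouse.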

How the data were processed

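RNA-Seq data of olfactory mucosa came from 6 mice, 3 per genotype. The authors assigned reads to mouse transcripts (mm10) with kallisto, whose version is not given in the sources used here, and deposited an estimated count, a TPM value, a length and an effective length per transcript. The library kit is given as KAPA in the labels and as TruSeq in the methods. Groups and mouse numbers came from the labels. Estimated counts were summed per gene and rounded, and genes were tested with edgeR 4.0.16 (quasi-likelihood test, no filter beyond 1 count in some mouse, Benjamini-Hochberg adjustment) with DESeq2 1.42.0 size factors in R 4.3.3. The test was tried on simulated data in which no single mouse was made to differ from its group, unlike the pattern described above. Summaries used Python 3.11.15, numpy 2.4.6 and pandas 2.3.3. Gene positions came from GENCODE M21 and promoters from RefSeq. Counting error and reads shared between similar genes limit low members.

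The members, gene lists and tests were chosen with earlier results of these data known. Genes named with values in every mouse were members called in either fit, members with a mean of at least 10 counts whose groups did not overlap, the 3 of highest TPM, the 3 with the highest single-mouse ratio, Rtp1, Rtp2, Rtp4 and called pathway genes. Deviations from the group means correlated at 0.140, 0.177 and 0.101 between mice of the same number over 18156 genes. Between mice of different number the correlations ran from -0.217 to 0.090. The numbers were taken to pair the mice for the replicate block, but correlations this weak do not establish that pairing. Alternatives were TMM, a filter on low counts, DESeq2's Wald test, edgeR's exact and likelihood-ratio tests, blocking on the mouse number, leaving out each mouse, pseudocounts of 0.1 and 10, summed TPM and the median over members. The rescaling of TPM to the median gene was added after the data were seen. The mice are separate littermates, and the p-values rest on 3 per group.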

Additional observations from a re-analysis of the deposited data

How the results depend on the processing

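The count of members called higher was 0 and became 1, Rsad2 in each case, with DESeq2's Wald test, edgeR's exact test, edgeR's likelihood-ratio test and the replicate block that pairs the mice by number (adjusted p = 0.020). It was 0 to 1 with each mouse left out, where only the fit without RTP1,2DKO mouse 3 called a member. TMM and the filter on low counts called none, and no setting called a member lower. The replicate block changed no other call among the members. The median log2 fold change over members was 0.05 to 0.24 with each mouse left out. The difference in mean z-score, 0.46 as reported, was -0.22 on summed TPM, 0.44 after rescaling TPM to the median gene, and 0.14 to 0.75 with each mouse left out. A minimum mean of 10 counts gave no separate value, since all 43 members reach it. The log2 fold change of Rtp4 was 0.07 to 0.53 with each mouse left out. The sign of 18 members changed when some mouse was left out, none of them called in any fit, with these ranges of the log2 fold change: Cxcl10 -1.58 to 0.39, Cxcl9 -0.33 to 0.70, Gbp3 -0.25 to 0.04, Gbp4 -0.39 to 0.19, Gbp7 -0.08 to 0.21, Ifi35 -0.01 to 0.27, Ifi44 -0.01 to 0.40, Ifit1 -0.58 to 0.04, Ifit3 -0.30 to 0.40, Igtp -0.14 to 0.32, Iigp1 -0.09 to 0.11, Irf1 -0.19 to 0.04, Irf9 -0.09 to 0.08, Mx1 -0.07 to 0.39, Oas2 -0.17 to 0.05, Oas3 -0.06 to 0.45, Parp9 -0.04 to 0.18, Trim30a -0.0048 to 0.41. No other setting turned a member's sign. With 3 mice a group, the low-count members Oasl1, Cxcl10, Cxcl9 and Zbp1 had standard errors of 0.43 to 0.66, so modest differences in them were not detectable at this depth.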
